A study of Mus musculus with 6 samples.

Results

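The 4 genes described here encode the subunits of the pituitary glycoprotein hormones. They are Cga, for the shared alpha subunit, and Tshb, Lhb and Fshb, for the beta subunits of thyrotropin, luteinizing hormone and follicle-stimulating hormone. They were chosen by gene name, from 50348 gene names in the isoform tables of 6 mouse pituitary RNA libraries. In those tables the 4 names cover 15 annotated transcripts.

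Each glycoprotein hormone is a pair of 1 alpha and 1 beta chain, and the beta chain gives the hormone its receptor. Thyrotropes make thyrotropin, which drives the thyroid under the control of thyrotropin-releasing hormone and of thyroid hormone feedback. Gonadotropes make both gonadotropins, which act on the ovary and testis under the control of gonadotropin-releasing hormone, activin and inhibin.

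The series addresses long non-coding RNAs of the developing pituitary and of its cell types, with 1 library for each group and so no replicates. Of the sorted libraries, 3 came from glands of adult mice aged 7 weeks: 42 pooled Tshbcre-YFP glands, 12 pooled Ghcre-YFP glands and 7 pooled Lhbcre-YFP glands. The other sorted library came from 5 pooled Tshbcre-YFP glands at postnatal day 7 (P7). In these mice a Cre driver named for Tshb, Gh or Lhb was crossed with a YFP reporter at the ROSA locus, and RNA was made from the fluorescent cells after dispersal with collagenase. Such a reporter stays on in a cell and its progeny once Cre has acted, so a sorted library covers a lineage and not only the cells that transcribe the driver gene at harvest. The unsorted libraries were 1 nontransgenic adult gland and 8 nontransgenic glands at P7. All 6 were made from total RNA by depletion of ribosomal RNA, with 250 ng as input. The sources used here do not give the sex of the mice.

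Levels are in FPKM, the mapped fragments for each kilobase of a transcript, normalised to the size of the library and summed over the annotated transcripts of a gene. They are divided by 1 factor per library, between 0.758 and 1.42, and are called scaled FPKM below. FPKM is per length, so levels of different genes can be set side by side. Ranges behind a value are the bounds deposited with it, which cover the counting and assignment of reads in 1 library and not the spread between mice. In a whole gland, and in a pool of sorted cells, fewer cells of a type and less RNA per cell cannot be told apart.

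The sorted libraries were first checked against the defining genes of their lineages. In the adult Tshbcre cells all 4 thyrotrope markers (Tshb, Trhr, Dio2 and Pou1f1) were at 1 scaled FPKM or more, with a sum of 1149 against 76.7 in the whole adult gland. Tshb itself made up 1075 of this sum. Trhr and Dio2 were higher than in the whole adult gland, at 10.9 and 40.4 against 0.790 and 3.87, and Pou1f1 was lower, at 23.1 against 39.0. In the P7 Tshbcre cells the same sum was 3218, of which Tshb was 3001, against 93.4 in the whole P7 gland. In the Lhbcre cells all 4 gonadotrope markers (Lhb, Fshb, Gnrhr and Nr5a1) were at 1 or more, with a sum of 2523. The whole adult gland had a sum of 831, with all 4 at 1 or more as well. Lhb made up 2198 and 637 of these sums. The adult Tshbcre cells had a larger sum, 3886, but lower Gnrhr and Nr5a1, at 28.4 and 26.0 against 53.2 and 55.5. With unnamed transcripts of its locus added, Nr5a1 was at 55.2 in the adult Tshbcre cells and 57.4 in the Lhbcre cells. The Ghcre table ended within chromosome 5 and listed 32923 gene names, against 49846 to 50316 in the others. Of the somatotrope markers it listed only Pappa2, at 32.8 against 18.7 in the whole adult gland, so Gh could not be checked in the library named for it. Lhb is also not listed there. Relative depth, taken from the coverage per FPKM, lay between 1 and 2.73 times that of the whole adult gland.

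The promoters of the 4 genes are shown because the genes ranked between 5th and 91st among all listed genes in the sorted Tshbcre and Lhbcre cells, apart from Tshb in the Lhbcre cells. Each sequence runs from 250 bases before the annotated start to 50 bases from it, from RefSeq on GRCm38.p6, and is written on the strand of the gene. They lie at chr4:34893529-34893828 on the plus strand (Cga), chr3:102782665-102782964 on the minus strand (Tshb), chr7:45420696-45420995 on the plus strand (Lhb) and chr2:107059602-107059901 on the minus strand (Fshb). Capitals mark matches, on either strand, to TATAAA (the TATA box), to AGATAA (an element of GATA factors) and to CAAGGTCA (an element of Nr5a1, which reads TGACCTTG on the other strand).
Cga: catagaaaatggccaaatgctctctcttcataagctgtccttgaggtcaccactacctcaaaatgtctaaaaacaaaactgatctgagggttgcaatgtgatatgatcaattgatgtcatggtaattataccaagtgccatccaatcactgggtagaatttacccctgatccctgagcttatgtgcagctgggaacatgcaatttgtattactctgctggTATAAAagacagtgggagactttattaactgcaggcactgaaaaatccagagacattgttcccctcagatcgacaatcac
Tshb: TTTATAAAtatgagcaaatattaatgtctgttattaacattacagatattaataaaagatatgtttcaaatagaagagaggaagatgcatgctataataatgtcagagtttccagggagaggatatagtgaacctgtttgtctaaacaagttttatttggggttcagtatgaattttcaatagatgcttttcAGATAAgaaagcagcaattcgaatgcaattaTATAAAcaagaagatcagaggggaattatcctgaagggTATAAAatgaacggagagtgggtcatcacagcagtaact
Lhb: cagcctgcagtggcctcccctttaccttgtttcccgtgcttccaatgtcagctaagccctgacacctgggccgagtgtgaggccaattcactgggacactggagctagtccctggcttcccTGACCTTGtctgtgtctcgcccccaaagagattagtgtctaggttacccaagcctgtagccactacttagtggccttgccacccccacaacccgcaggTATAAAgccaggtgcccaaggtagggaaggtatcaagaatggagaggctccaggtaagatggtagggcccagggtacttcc
Fshb: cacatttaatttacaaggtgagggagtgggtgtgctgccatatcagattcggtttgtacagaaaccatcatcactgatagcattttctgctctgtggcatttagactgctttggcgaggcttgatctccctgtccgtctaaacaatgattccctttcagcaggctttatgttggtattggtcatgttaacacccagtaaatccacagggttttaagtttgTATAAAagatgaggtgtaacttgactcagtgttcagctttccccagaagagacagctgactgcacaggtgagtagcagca

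Every one of the 4 promoters holds a TATAAA on the gene strand close before the start, at 30 bases before it in Cga, 27 in Tshb, 31 in Lhb and 30 in Fshb. Of 32851 RefSeq promoters of this length, 13.6% hold TATAAA on either strand, and 1.83% hold it on the gene strand with its first base 22 to 35 bases before the start. That window was chosen after the matches were seen. The Tshb promoter holds further copies at 248 bases before the start, where a match on the opposite strand overlaps it to give the capitals at its left end, and at base 12 from the start. The AGATAA in Tshb lies 58 bases before the start, and 11.2% of promoters hold this motif. The CAAGGTCA in Lhb lies 129 bases before the start on the other strand, and 1.56% of promoters hold it. The cAMP response element TGACGTCA (1.79% of promoters), the homeobox element GGATTA (7.06%) and the Egr1 element GCGTGGGCG (0.612%) have no match in these 4 windows. The GC content was 41.3% in Cga, 32% in Tshb, 56.7% in Lhb and 44% in Fshb, against a median of 52.7% over all promoters. A match of letters is a description and shows no binding. Only these exact letters were searched, so the lack of a match does not show that an element is absent.

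Cga, the common alpha subunit (chromosome 4, 34893779 to 34907374, mm39), was the most abundant of the 4 genes in every library that lists all of them. Its level was 9593 scaled FPKM (9192 to 9994) in the P7 Tshbcre cells, 6546 (6271 to 6820) in the adult Tshbcre cells and 3649 (3496 to 3802) in the Lhbcre cells. It was 805 (767 to 843) in the whole adult gland, 749 (717 to 781) in the whole P7 gland and 18.7 (17.3 to 20.2) in the Ghcre cells. The 3 libraries sorted by Tshbcre or Lhbcre were therefore high, the whole glands lay between, and the Ghcre value was low. The whole glands are the only neighbours in this order whose bounds overlap. By rank among all listed genes, Cga was 5th in the P7 Tshbcre cells, 8th in the adult Tshbcre cells, 10th in the Lhbcre cells and 979th in the Ghcre cells.

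Tshb (chromosome 3, 102684621 to 102718175) encodes the chain that makes the hormone thyrotropin. Its order was P7 Tshbcre at 3001 (2874 to 3127), adult Tshbcre at 1075 (1028 to 1122), P7 whole at 61.0 (57.3 to 65.0), adult whole at 33.1 (30.1 to 36.4), Lhbcre at 9.05 (7.90 to 10.3) and Ghcre at 3.87 (3.03 to 4.85). No bounds overlapped between neighbours. The step from the lower Tshbcre library to the higher whole gland was 17.6-fold, the widest in this order. Tshb was the 15th most abundant gene in the P7 Tshbcre cells, the 23rd in the adult Tshbcre cells and the 3283rd in the Lhbcre cells.

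Lhb, the luteinizing hormone beta chain (chromosome 7, 45066912 to 45071279), had its highest level in a library that was not sorted by its own driver. It stood at 2904 (2782 to 3027) in the adult Tshbcre cells, 2198 (2106 to 2290) in the Lhbcre cells and 1278 (1222 to 1333) in the P7 Tshbcre cells. The whole adult gland was at 637 (608 to 666) and the whole P7 gland at 312 (297 to 326). All neighbours in this order were apart by their bounds, and the top pair differed 1.32-fold.

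Fshb, the follicle-stimulating hormone beta chain (chromosome 2, 106886331 to 106889996), was also highest in the adult Tshbcre cells, at 928 (889 to 966). It was 482 (461 to 502) in the P7 Tshbcre cells, 216 (214 to 219) in the Lhbcre cells, 180 (177 to 183) in the whole adult gland and 85.1 (83.6 to 86.7) in the whole P7 gland. In the Ghcre cells it is listed at 0, with an upper bound of 0.0121. The Lhbcre cells and the whole adult gland differed 1.20-fold, the narrowest step of this order, and their bounds did not overlap. An unnamed transcript of 1743 nt that the Ghcre table assigns to the same gene stood at 2.75 scaled FPKM, so the 0 belongs to the annotated transcript and not to the locus.

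**Figure D1:**
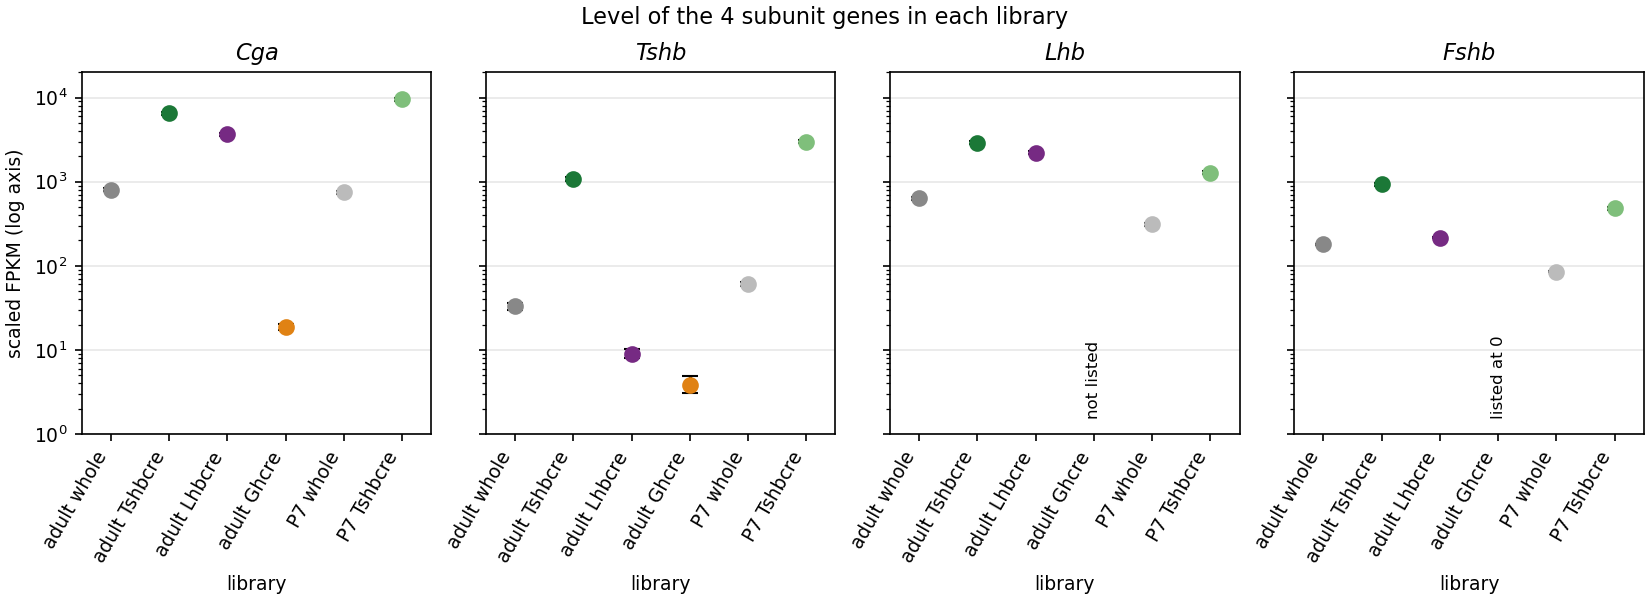
Level of Cga, Tshb, Lhb and Fshb in each of the 6 libraries, in scaled FPKM on a log axis. Points are single libraries, the bars are the deposited bounds, and most bars are smaller than the point. Cga is at 9593 in the P7 Tshbcre cells and 18.7 in the Ghcre cells, Tshb is at 1075 and 3001 in the Tshbcre libraries and at 61.0 or less elsewhere, and Lhb is not listed in the Ghcre table.

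Of the 15 annotated transcripts, 6 were above 0 in a library and 9 were at 0 in every library that lists them. Fshb has 1 annotated transcript, NM_008045.3, of 1749 nt. Lhb has 5, of which only the curated transcript NM_008497.2 (509 nt, 45070370 to 45071278) was above 0. Its other 4 are predicted transcripts that begin more upstream, and they were at 0 in all 5 libraries that list them.

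Cga was spread over a curated and a predicted transcript of nearly the same length that begin at different sites. The curated NM_009889.2 (691 nt) begins at 34893779, and the predicted XM_006537586.2 (687 nt) begins at 34901371, further into the span of the gene. The predicted transcript made up 25.4% (23.8 to 27.0) of the Cga FPKM in the adult Tshbcre cells and 20.0% (18.4 to 21.6) in the whole adult gland. Its share was 13.3% (12.4 to 14.3) in the P7 Tshbcre cells and 10.4% (9.60 to 11.2) in the Lhbcre cells. In the whole P7 gland and in the Ghcre cells it is listed at 0, with upper bounds that allow a share of 0.00640% and 0.224%. In scaled FPKM it was 1662 in the adult Tshbcre cells and 1278 in the P7 Tshbcre cells. The share thus differed between libraries beyond the deposited bounds, and it was lower at P7 than in the adult in the sorted Tshbcre libraries and in the whole glands. The transcripts overlap and end at nearly the same site, so the split rests on how shared reads were assigned.

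Tshb has 7 annotated transcripts, 3 curated and 4 predicted, and 2 of them carried all of its FPKM. The curated transcripts have 5, 4 and 3 exons in GENCODE on GRCm38, with the same 2 coding exons, so they differ in untranslated exons only. The one with the fewest exons, NM_001165940.1 (557 nt), held 98.3% (98.1 to 98.4) of Tshb FPKM in the adult Tshbcre cells and 98.2% (98.0 to 98.3) in the P7 Tshbcre cells. The curated NM_009432.2 and NM_001165939.1 were at 0 in all 6 libraries. The remainder went to the predicted XM_017319535.3, which is 3452 nt long over a span of 3877 nt. The 425 nt between these lengths equal the length of the intron between the coding exons of the curated transcripts. XM_017319535.3 thus covers sequence that is intron in the curated transcripts.

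The share of XM_017319535.3 was high where Tshb was low. It was 19.1% (13.7 to 26.0) in the Ghcre cells, 11.4% (9.02 to 14.2) in the Lhbcre cells and 2.59% (1.97 to 3.31) in the whole adult gland. It was 1.73% (1.57 to 1.90) and 1.82% (1.67 to 1.99) in the adult and P7 Tshbcre libraries, whose bounds overlap, and it is listed at 0 in the whole P7 gland. As it is the longer transcript, its share of Tshb reads, taken as FPKM times length, was larger: 59.4% in the Ghcre cells, 44.4% in the Lhbcre cells, 14.2% in the whole adult gland, 9.83% in the adult Tshbcre cells and 10.3% in the P7 Tshbcre cells. In scaled FPKM its level was 0.738 in the Ghcre cells, 1.03 in the Lhbcre cells, 0.859 in the whole adult gland, 18.6 in the adult Tshbcre cells and 54.7 in the P7 Tshbcre cells.

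**Figure D2:**
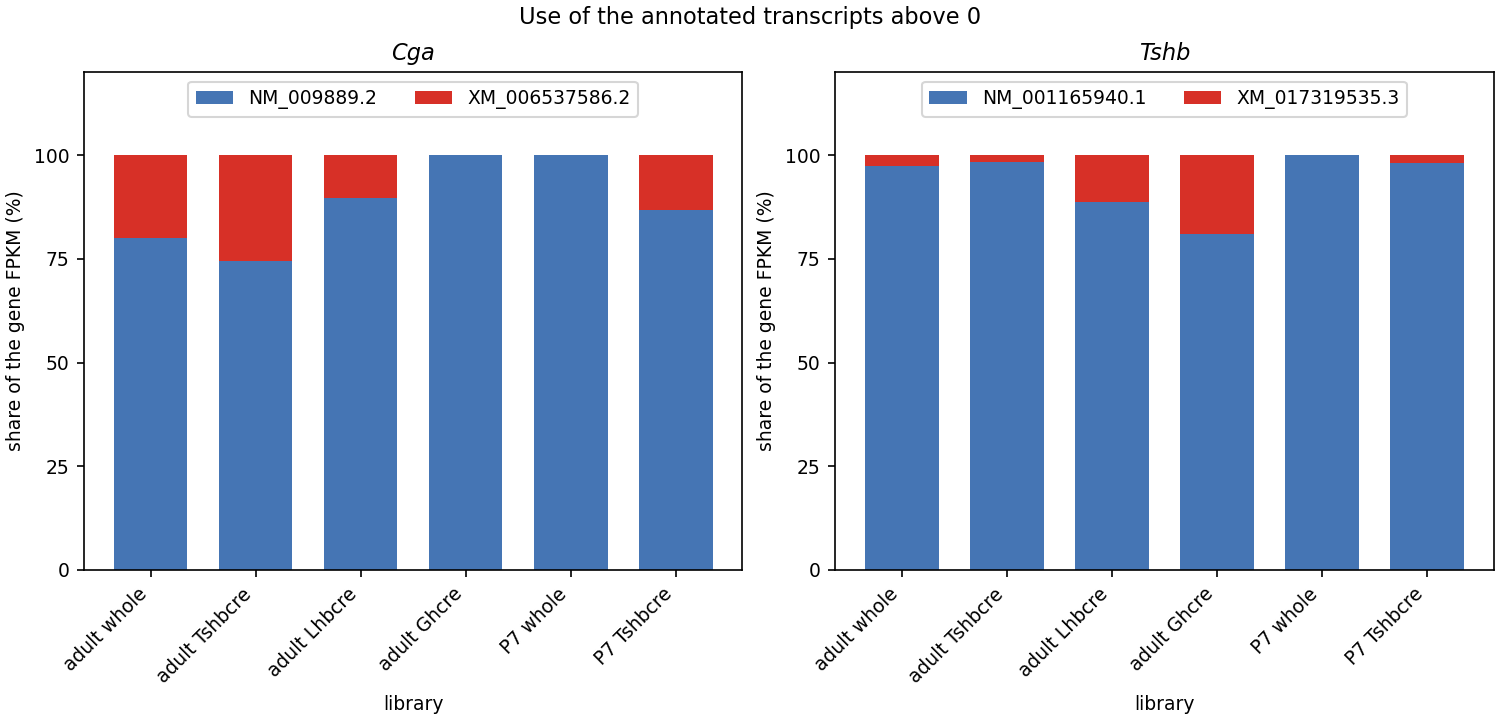
Share of the FPKM of Cga and of Tshb given to each annotated transcript that was above 0, in percent, for each library. The predicted Cga transcript is at 25.4% in the adult Tshbcre cells and at 0 in the whole P7 gland, and the predicted Tshb transcript is at 19.1% in the Ghcre cells.

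The ratio of a beta gene to Cga within a library needs no scaling between libraries. The ratio of Tshb to Cga was 0.313 (0.288 to 0.340) in the P7 Tshbcre cells, 0.164 (0.151 to 0.179) in the adult Tshbcre cells, 0.0814 (0.0733 to 0.0906) in the whole P7 gland and 0.0412 (0.0357 to 0.0475) in the whole adult gland. It was 0.00248 (0.00208 to 0.00296) in the Lhbcre cells. In the Ghcre cells it was 0.207 (0.150 to 0.281), a value built on low levels of both genes. Sorting by Tshbcre went with a ratio 3.99-fold that of the whole gland in the adult and 3.84-fold at P7. P7 libraries had 1.98-fold the adult ratio in whole glands and 1.90-fold in Tshbcre libraries. With unnamed transcripts of the same locus added, the adult whole ratio was 0.0257 and the Ghcre ratio 0.393.

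The ratio of Lhb to Cga moved the other way with age. It was 0.792 (0.722 to 0.869) in the whole adult gland and 0.416 (0.380 to 0.455) in the whole P7 gland. In the Tshbcre libraries it was 0.444 (0.408 to 0.483) in the adult and 0.133 (0.122 to 0.145) at P7, and in the Lhbcre cells it was 0.602 (0.554 to 0.655). The ratio of Fshb to Cga was 0.224 (0.211 to 0.239) in the whole adult gland, 0.142 (0.130 to 0.154) in the adult Tshbcre cells, 0.114 (0.107 to 0.121) in the whole P7 gland, 0.0593 (0.0563 to 0.0625) in the Lhbcre cells and 0.0502 (0.0461 to 0.0546) in the P7 Tshbcre cells. The P7 value was 0.507 of the adult value in whole glands and 0.354 in Tshbcre libraries. With the unnamed transcript of the Cga locus added, the adult whole ratios were 0.494 for Lhb, 0.140 for Fshb and 0.0257 for Tshb, so the age difference of the Lhb and Fshb ratios in whole glands was smaller there.

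**Figure D3:**
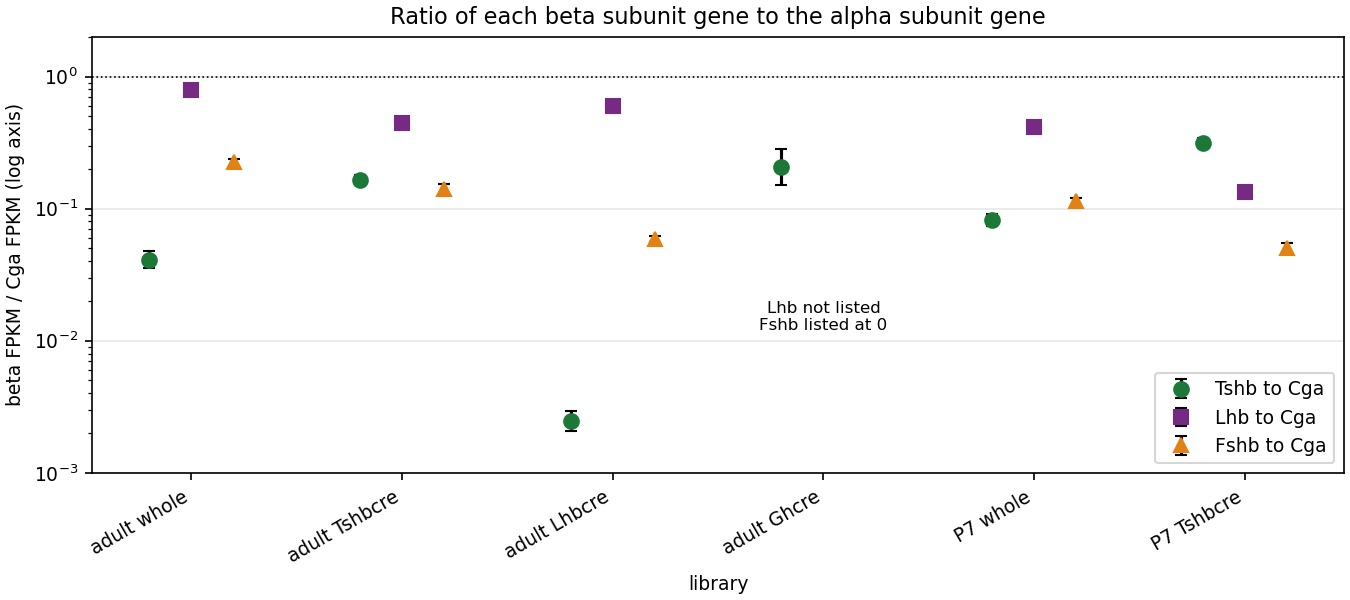
Ratio of Tshb, Lhb and Fshb FPKM to Cga FPKM in each library, on a log axis, with the range that the deposited bounds allow. The dotted line is a ratio of 1. Tshb to Cga spans from 0.00248 in the Lhbcre cells to 0.313 in the P7 Tshbcre cells, while Lhb to Cga stays between 0.133 and 0.792.

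The gonadotropin beta genes also differed in their ratio to each other. Lhb to Fshb was 10.2 (9.64 to 10.7) in the Lhbcre cells, against 3.53 (3.32 to 3.76) in the whole adult gland, 3.66 (3.43 to 3.90) in the whole P7 gland, 3.13 (2.88 to 3.41) in the adult Tshbcre cells and 2.65 (2.43 to 2.89) in the P7 Tshbcre cells. The Lhbcre cells stood apart from the other 4 libraries. The Lhbcre cells also differed in sex-linked genes from the other adult libraries that list them, which leaves out Ghcre. Xist was at 29.4 scaled FPKM there, against 0.106 and 0.0599 in the adult Tshbcre cells and the whole adult gland, and the Y-linked Ddx3y was at 0.0122 against 3.20 and 2.61. The sex of the pooled mice and the sorted lineage cannot be told apart where the adult Tshbcre cells or the whole adult gland is compared with Lhbcre. At P7 both Xist and Ddx3y were above 1 in each library.

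As shares of the summed beta FPKM, Lhb made up 90.7% in the Lhbcre cells, 74.9% in the whole adult gland, 68.1% in the whole P7 gland, 59.2% in the adult Tshbcre cells and 26.8% in the P7 Tshbcre cells. Tshb made up 63.0% in the P7 Tshbcre cells, 21.9% in the adult Tshbcre cells, 13.3% in the whole P7 gland, 3.89% in the whole adult gland and 0.373% in the Lhbcre cells. Of these 5, only the P7 Tshbcre cells had Tshb as the leading beta gene. The sum of the beta genes was 0.750 (0.689 to 0.816) of Cga in the adult Tshbcre cells, 0.664 (0.612 to 0.721) in the Lhbcre cells, 0.496 (0.456 to 0.540) in the P7 Tshbcre cells and 0.611 (0.560 to 0.666) in the whole P7 gland. In the whole adult gland it was 1.06 (0.968 to 1.16), or 0.660 with an unnamed transcript that the table assigns to Cga. That transcript, of 340 nt at 34906683 to 34907384, stood at 535 FPKM beside 889 FPKM for the annotated ones.

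Libraries were compared by the difference of log2(scaled FPKM + 1), a scale on which low genes look closer than they are. Genes 4-fold apart or more were counted if they reached 1 scaled FPKM in at least 1 of the compared libraries. The share of all genes at that level that were 4-fold apart is given with each count, and applies to the pathway genes as well. Comparisons that use the whole adult gland share it, and so do those that use the adult Tshbcre cells.

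In the sorted adult Tshbcre cells all 4 subunit genes were at least 4-fold above the whole adult gland, against 3.22% of 15797 genes higher and 3.84% lower. Tshb was 31.5-fold higher (27.5 to 36.1), Cga 8.13-fold (7.44 to 8.89), Fshb 5.12-fold (4.83 to 5.42) and Lhb 4.55-fold (4.17 to 4.97). With the unnamed transcript of the Cga locus in the whole adult gland added, all 4 still passed, and the log2 difference of Cga was 2.28 in place of 3.02, next to 2.29 for Fshb. By size of difference Tshb was 73rd, Cga 262nd, Fshb 400th and Lhb 442nd. The gonadotropin genes were thus higher in a library sorted for the thyrotropin lineage, although less so than Tshb. Other gonadotrope genes were higher there too: Gnrhr, which encodes the receptor for gonadotropin-releasing hormone, stood at 28.4 against 8.69 scaled FPKM, and Nr5a1, a nuclear receptor of gonadotropes, at 26.0 against 5.08. All 4 gonadotrope markers were at 1 or more in both libraries. Of the other hormone lineages, all 3 somatotrope markers and both lactotrope markers were at 1 or more in the adult Tshbcre cells. Gh was at 14806 there and is not listed for the whole adult gland. The others were lower than in that gland: Prl at 6546 against 17579, Ghrhr at 6.69 against 27.2, Pappa2 at 4.67 against 18.7 and Drd2 at 3.12 against 23.8. Corticotrope and melanotrope markers summed to 278 against 1589. The part of these cell types in the values of the members was not tested.

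At P7 the same comparison also placed all 4 genes at least 4-fold higher in the Tshbcre library, against 3.26% of 16370 genes higher and 6.11% lower. Tshb was 48.4-fold higher (43.6 to 53.7), Cga 12.8-fold (11.8 to 13.9), Fshb 5.60-fold (5.27 to 5.95) and Lhb 4.09-fold (3.74 to 4.48). With FPKM as deposited 2 of the 4 passed, as Lhb stood at 1.49 and Fshb at 1.95 on the log2 scale. With unnamed transcripts of the locus added 3 passed, as Lhb stood at 1.88. Of all called genes 34.8% were higher in the sorted library, and 24.6% with FPKM as deposited. Among gonadotrope markers, Gnrhr was at 8.91 against 9.17 and Nr5a1 is listed at 0 against 6.09, while Lhb and Fshb were at 1278 and 482. With unnamed transcripts of its locus added, Nr5a1 differed by -0.33 on the log2 scale. The sum of the 4 gonadotrope markers was 1768 in the P7 Tshbcre cells and 412 in the whole P7 gland. Of the somatotrope markers, Gh was at 3870 against 6031 in this comparison and Pappa2 at 4.12 against 3.36. Ghrhr is listed at 0 against 19.3.

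In the Ghcre cells all 3 listed members were at least 4-fold below the whole adult gland, against 5.36% of 11286 genes lower and 4.44% higher. Cga was 40.9-fold lower (36.2 to 46.1) and Tshb 7.01-fold lower (5.31 to 9.28), and Fshb is listed at 0 against 180. Among compared genes, 0.425% had a larger negative difference than Cga. With an equal sum, 2 of the 3 passed: the log2 difference was -3.98 for Cga, in place of -5.35, and -1.57 for Tshb, in place of -2.81. All 3 passed with unnamed transcripts of the locus added, at -6.11 for Cga, -2.11 for Tshb and -5.67 for Fshb. With all unnamed transcripts over the span added, 2 passed and Tshb stood at -1.40. The direction of all 3 held under each of these settings, although 45.3% of called genes were higher in the Ghcre cells with the scaling used, 35.4% with FPKM as deposited and 79.2% with an equal sum. Pou1f1, the factor shared by thyrotropes, somatotropes and lactotropes, was at 40.3 in the Ghcre cells and 39.0 in the whole adult gland. Corticotrope and melanotrope markers summed to 31.1 against 1589.

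In the Lhbcre cells 1 of the 4 members, Cga, was at least 4-fold above the whole adult gland, against 3.85% of 16452 genes higher and 5.46% lower. Cga was 4.53-fold higher (4.15 to 4.96), Lhb 3.45-fold higher (3.16 to 3.76) and Fshb 1.20-fold higher (1.17 to 1.23), and Tshb was 3.40-fold lower (2.74 to 4.20). Cga did not pass with FPKM as deposited. With the unnamed transcript of its locus added, the log2 difference of Cga was 1.49, below the 1.78 of Lhb, and no member passed, so the order of Cga and Lhb in this comparison depends on that transcript. With an equal sum Lhb passed as well, which gives 2. Of all called genes 41.3% were higher in the Lhbcre cells, and 52.7% with an equal sum.

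The sorted adult lineages were then set against each other. Of the 4 members, 2 were at least 4-fold higher in the adult Tshbcre cells than in the Lhbcre cells, against 4.97% of 16310 genes higher and 4.33% lower. Tshb was 107-fold higher (90.8 to 126), and Fshb was 4.27-fold higher (4.05 to 4.50). Cga was 1.79-fold higher (1.65 to 1.95) and Lhb 1.32-fold higher (1.21 to 1.44). With an equal sum, Tshb alone passed, and Lhb differed by 0.01 on the log2 scale in place of 0.40. Both gonadotropin genes were thus at least as high in the Tshbcre library. Gnrhr was at 28.4 against 53.2 and Nr5a1 at 26.0 against 55.5, lower than in the Lhbcre cells. With unnamed transcripts of the locus added, Gnrhr differed by -0.61 on the log2 scale in place of -0.88. For Nr5a1 the difference was then -0.05 in place of -1.07, so its lower level depended on the annotated transcripts.

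Between the ages no member was 4-fold apart. In whole glands, 3.31% of 15690 genes were at least 4-fold higher at P7 and 3.28% lower. Tshb was 1.82-fold higher at P7 (1.56 to 2.12), Lhb 2.04-fold lower (1.86 to 2.24) and Fshb 2.10-fold lower (2.03 to 2.18). Cga differed by -0.10 on the log2 scale, with a range from -0.23 to 0.03 that includes 0, and its sign changed with FPKM as deposited (0.26) and with an equal sum (0.04). In the Tshbcre libraries, 3.57% of 16029 genes were at least 4-fold higher at P7 and 4.64% lower. There Tshb was 2.79-fold higher at P7 (2.56 to 3.04) and Cga 1.47-fold higher (1.35 to 1.59), while Lhb was 2.27-fold lower (2.09 to 2.48) and Fshb 1.92-fold lower (1.77 to 2.09). In whole glands and in sorted cells alike, Tshb was thus higher and both gonadotropin genes lower at P7. The pools also differed in size and in sex-linked genes, and age, pool and sex cannot be told apart.

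**Figure D4:**
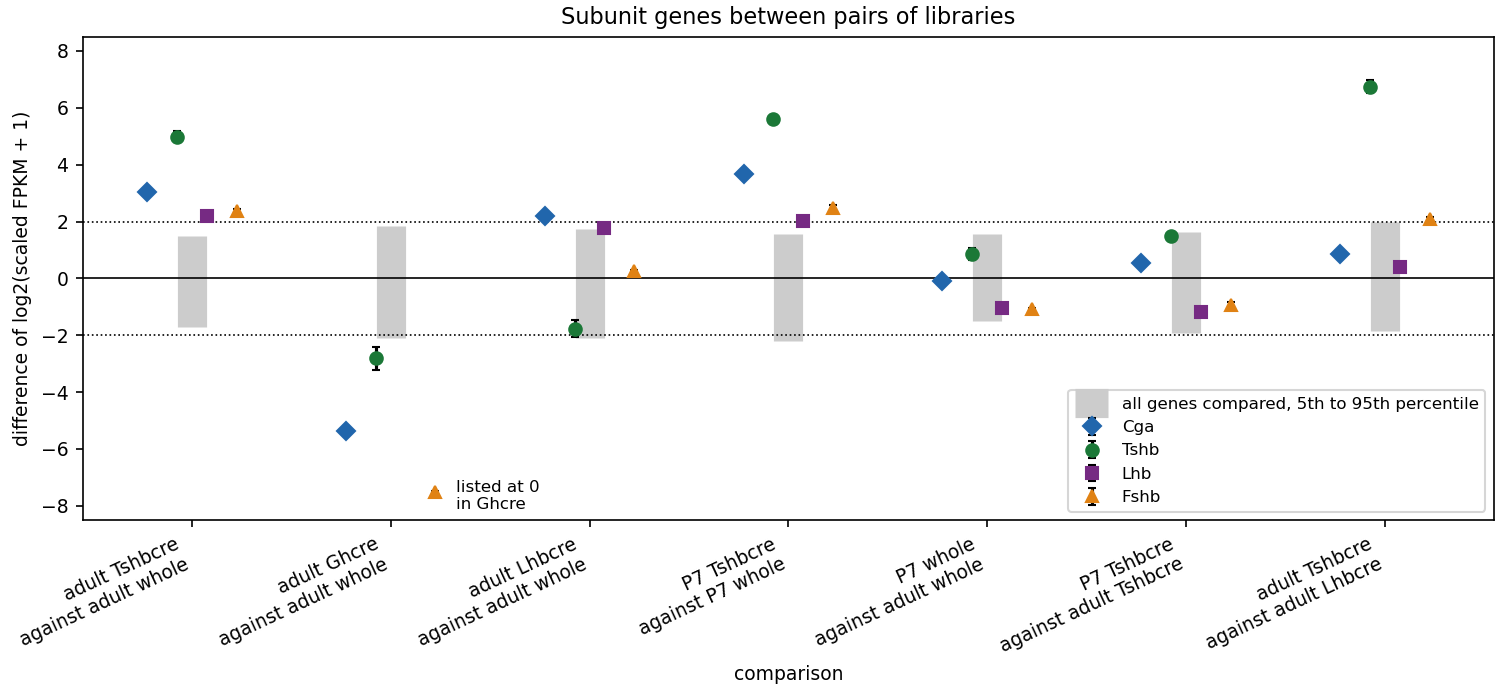
Difference of log2(scaled FPKM + 1) for each subunit gene in 7 comparisons of libraries, with the range that the deposited bounds allow. Dotted lines mark 4-fold, and grey bars span the 5th to the 95th percentile of all genes compared. All 4 points lie above 2 for both Tshbcre libraries against whole glands, and all lie within 2 of 0 between the ages. The Fshb point for Ghcre reflects a value listed at 0.

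The other genes of the pathway were described from 5 lists with 49 genes: receptors and signals, the activin and inhibin system, transcription factors, enzymes of hormone sulfation and glycans, and the remaining glycoprotein hormone subunits with the hormone receptors. In the adult Tshbcre cells against the whole adult gland, 7 of the 41 genes at 1 scaled FPKM or more in either library were at least 4-fold higher and 0 lower, against 3.22% and 3.84% of all genes. Their median was 0.38 on the log2 scale, against -0.02 over all genes. Dio2 encodes the deiodinase that makes active thyroid hormone, and it was 8.49-fold higher, at 40.4 against 3.87. Trhr, the receptor of thyrotropin-releasing hormone, was 6.63-fold higher, at 10.9 against 0.790. The transcription factors Gata2 (44.9 against 8.20), Nr5a1 (26.0 against 5.08) and Isl1 (10.5 against 1.86) were 4.99-fold, 4.44-fold and 4.01-fold higher. Tgfbr3l, a membrane protein through which inhibin B acts on gonadotropes, was 4.52-fold higher, at 413 against 90.5. The other was Foxl2, a forkhead factor of gonadotropes and thyrotropes, at 22.1 and listed at 0 in the whole adult gland. With unnamed transcripts of the locus added, Foxl2 was at 27.3 against 4.81. The log2 difference was then 2.28 in place of 4.53.

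At P7, 2 of 43 pathway genes were at least 4-fold higher in the Tshbcre library and 3 were lower, with a median of -0.05 against -0.01 over all genes. Over all genes 3.26% were higher and 6.11% lower, so these counts lie near the background. Dio2 was 15.6-fold higher, at 164 against 9.59, and Trhr was 6.64-fold higher, at 14.6 against 1.36. The lower genes were all transcription factors. Nr5a1 and Foxl2 are listed at 0 in the Tshbcre library, at 6.09 and 6.24 in the whole gland, and Lhx3, a factor of early pituitary development, was 5.63-fold lower, at 3.32 against 23.3. With unnamed transcripts of the locus added, Lhx3 differed by 0.04 on the log2 scale, Nr5a1 by -0.33 and Foxl2 by 0.82. None of the 3 remained 4-fold lower. Gata2 and Isl1 differed by 1.22 and 0.84 without that addition and by 2.52 and 2.43 with it. Both were thus at least 4-fold higher with it.

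In the Lhbcre cells against the whole adult gland, 4 of 40 pathway genes were at least 4-fold higher and 1 was lower, with a median of 0.33 against 0.00 over all genes, of which 3.85% were higher and 5.46% lower. Nr5a1 was 9.29-fold higher, at 55.5 against 5.08, and Gnrhr 5.60-fold higher, at 53.2 against 8.69. Chst8, which sulfates the sugar chains of luteinizing hormone, was 5.10-fold higher, at 37.1 against 6.47. Acvr1b, a type I receptor for activin, was 4.40-fold higher, at 7.76 against 0.991. The whole adult gland had the lowest Acvr1b of the 6 libraries. The level was 5.51 in the adult Tshbcre cells, 3.45 in the Ghcre cells, 5.16 in the P7 Tshbcre cells and 4.40 in the whole P7 gland. The lower gene was Med1, a coactivator subunit, which is listed at 0 against 5.23. It differed by 0.13 on the log2 scale with unnamed transcripts added.

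In the Ghcre cells 0 of 26 pathway genes were at least 4-fold higher and 2 were lower, with a median of -0.33 against 0.00. Over all genes 4.44% were higher and 5.36% lower. Nr5a1 was 5.59-fold lower, at 0.0874 against 5.08, and Inhbb, the beta B chain of inhibin and activin, was 5.24-fold lower, at 0.273 against 5.67. Gnrhr, Gata2, Tgfbr3l and Chst8 are not listed there.

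Between the adult Tshbcre and Lhbcre libraries, 5 of 40 pathway genes were higher in Tshbcre and 0 lower, with a median of 0.13 against -0.02. Over all genes 4.97% were higher and 4.33% lower. Trhr was 5.46-fold higher, at 10.9 against 1.17, and Dio2 4.34-fold, at 40.4 against 8.52. Eya3, a coactivator described for seasonal Tshb induction, was 6.47-fold higher, but differed by 0.24 on the log2 scale with unnamed transcripts added. Foxl2 and Med1 are listed at 0 in the Lhbcre cells, and differed by 1.02 and 0.31 with unnamed transcripts added. Of the 5, Trhr and Dio2 alone were 4-fold higher with that addition. Gata2 and Isl1, not among the 5, differed by 1.58 and 1.23 without it. With it they differed by 2.04 and 2.09, and so passed 4-fold as well. The glycan enzymes had a median of -1.44 in this comparison, and none of the 5 was 4-fold apart.

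Between the ages, 1 of 41 pathway genes was higher at P7 in whole glands and 0 lower, with a median of 0.03 against 0.02. Over all genes 3.31% were higher and 3.28% lower. The gene was Foxl2, at 6.24 against a value listed at 0, and it differed by 0.94 with unnamed transcripts added. In the Tshbcre libraries 0 were higher at P7 and 3 of 41 lower, with a median of -0.25 against 0.02, and 3.57% and 4.64% over all genes. Of these, Lhx3 was 7.47-fold lower, at 3.32 against 31.3, and differed by -0.22 on the log2 scale with unnamed transcripts added. Nr5a1 and Foxl2 are listed at 0 at P7, against 26.0 and 22.1. With unnamed transcripts added, Nr5a1 differed by -2.23 on the log2 scale and Foxl2 by -0.52. Adcyap1r1, which was not called, differed by -0.60 without that addition and by -2.04 with it. Dio2 was 3.999-fold higher at P7, at 164 against 40.4, just short of the threshold. With the addition Dio2 differed by 2.002 and so passed.

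Of the remaining hormone subunits, Gpha2, the alpha chain of thyrostimulin, is listed at 0 in all 6 libraries, and its beta chain gene Gphb5 did not exceed 0.326 scaled FPKM. Among the hormone receptors, Lhcgr is listed at 0 in all 6 libraries and Fshr did not exceed 0.0391. Tshr, the thyrotropin receptor, was at 1.74 in the P7 Tshbcre cells, 0.927 in the adult Tshbcre cells and 0.394 or less in the others.

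**Figure D5:**
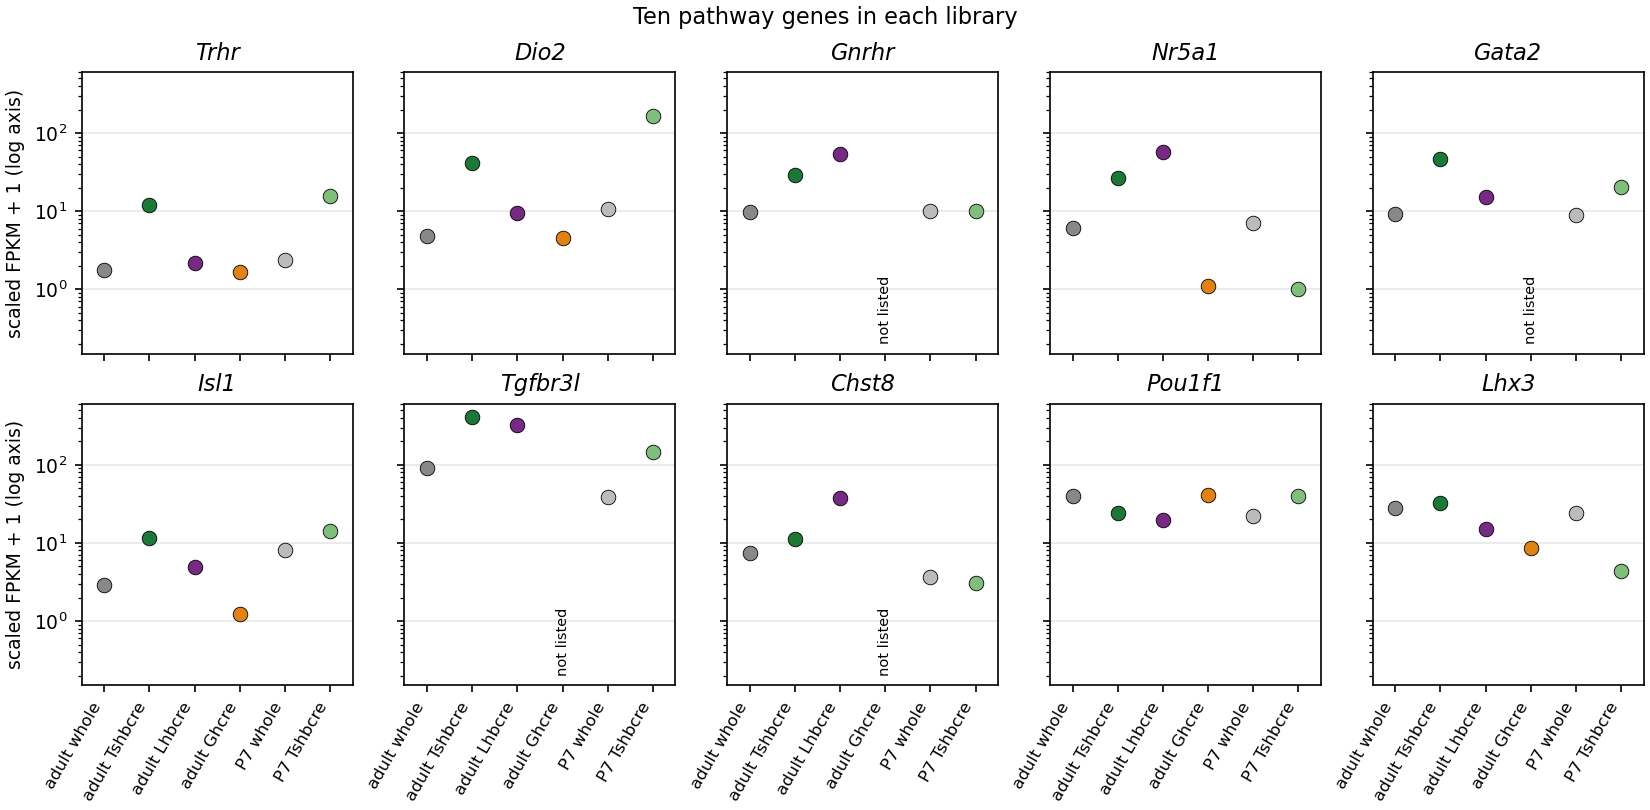
Level of 10 pathway genes in each library, as scaled FPKM + 1 on a log axis. Trhr and Dio2 are highest in the P7 and adult Tshbcre libraries, with Dio2 at 164 and 40.4, and Gnrhr, Nr5a1 and Chst8 are highest in the Lhbcre cells, at 53.2, 55.5 and 37.1. Genes past the end of the Ghcre table are marked as not listed, and points at 1 are values of 0.

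The genes whose pattern over the libraries was most like that of each member were found by the Pearson correlation of log2(scaled FPKM + 1). This covered 2419 genes over 6 libraries, or 3517 genes over 5 libraries for Lhb, and with so few libraries it is a description only. All libraries share the scaling, and the Tshbcre and whole glands appear at both ages. Among the genes most like Tshb were Nup88 (0.995), Ndufb4 (0.964), Usp14 (0.962) and Tnik (0.958). Those most like Cga were Nr1d2 (0.982), Cbr1 (0.982), Spock1 (0.973), Urod (0.971) and Phf3 (0.967). Those most like Lhb were Vps28 (0.996), Tgfbr3l (0.995), Prkcb (0.992), Mapk8ip2 (0.987) and Agtpbp1 (0.986). Those most like Fshb were Urod (0.994), Ly6h (0.988), Etfdh (0.987), Lrrn2 (0.980) and Kansl3 (0.974).

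A like pattern did not go with a like range. Nup88 lay between 8.96 and 13.6 scaled FPKM over the 6 libraries, while Tshb lay between 3.87 and 3001. Tgfbr3l was at 413 in the adult Tshbcre cells, 325 in the Lhbcre cells, 146 in the P7 Tshbcre cells, 90.5 in the whole adult gland and 38.2 in the whole P7 gland, which is the order of Lhb. Among the members, Cga and Fshb were at 0.967 over 6 libraries. Fshb and Lhb were at 0.833 and Cga and Lhb at 0.819, both over 5 libraries. Pairs with Lhb leave out the Ghcre cells, where Cga was at 18.7 and Fshb is listed at 0. Values over 6 and over 5 libraries are therefore not ranked against each other. Cga and Tshb were at 0.744, Fshb and Tshb at 0.715, and Lhb and Tshb at 0.275 over 5 libraries.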

How the data were processed

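Total RNA of 6 mouse pituitary libraries was measured, 1 for each group, with groups taken from the labels. Per the submitters' processing notes, FastQC, Bowtie2 and Cufflinks were used with the build mm39, and no versions are given. The deposited tables give, for each transcript, an FPKM computed by the authors with its bounds, a status, the transcript length and the coverage. Within a table, the deposited coverage signal divided by FPKM gave the same constant for every transcript, which served as a relative measure of depth. The number of reads, and whether they were counted by strand, are not given in the sources used here. No other named gene overlaps the 4 loci in the tables.

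FPKM was summed over the annotated transcripts of a gene and divided by a library factor, the median ratio to the geometric mean of the 6 libraries, over 5808 genes that reach 1 FPKM in each. The factors were 0.758 (Ghcre), 0.967 (Lhbcre), 1.00 (adult Tshbcre), 0.976 (P7 Tshbcre), 1.10 (adult whole) and 1.42 (P7 whole). The range of a gene is the sum of its transcripts' bounds. A gene absent from a table counts as not measured in it. With 1 library per group no test was made and no p-value was computed. Differences used a pseudocount of 1, and genes were called 4-fold apart only if 1 of the libraries reached 1 scaled FPKM. The calculation was tested on simulated data.

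The named genes are the 4 members, pathway genes 4-fold apart and above 0 in both libraries (up to 6 a comparison), and the 5 genes most like each member among those above 0 in the libraries that list it and at 10 scaled FPKM or more in 1 of them. Of the genes most like Tshb, 1 is not reported here. Pathway genes listed at 0 in 1 of the libraries were named after their values were seen, as were the pathway genes given at low or 0 level. The members and lists were chosen with earlier results of these data known. The alternatives were FPKM as deposited, an equal sum over annotated genes, a pseudocount of 0.1, no filter, a 2-fold threshold, curated transcripts only, coverage for FPKM, genes above 0 in both libraries, and the addition of unnamed transcripts of 200 nt or more that a table assigns to the gene. The addition of all such transcripts over the span of a gene was chosen after seeing the data. Promoters came from RefSeq on GRCm38.p6 and exon structures from GENCODE on GRCm38, matched by name, with no conversion of coordinates. Python 3.11.15, pandas 2.3.3, NumPy 2.4.6 and Matplotlib 3.10.9 were used.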

Additional observations from a re-analysis of the deposited data

Results flagged for a closer look

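Differences of opposite sign were seen for 3 genes under the same contrast, each from 1 library a group, and none of them was tested. Cga differed between P7 and adult by -0.10 on the log2 scale in whole glands and by 0.55 in the Tshbcre libraries. Nr5a1, in Tshbcre cells against whole glands, differed by 2.15 in the adult and by -2.83 at P7, where it is listed at 0 in the sorted library. Lhx3, in the same contrast, differed by 0.22 in the adult and by -2.49 at P7. With unnamed transcripts of the locus added, Nr5a1 differed by 2.42 in the adult and -0.33 at P7, and Lhx3 by -0.10 and 0.04, so the signs stayed opposite but the differences of Lhx3 were near 0. For Cga with that addition, the whole glands differed by -0.70.

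Unnamed transcripts of 200 nt or more, which the reported levels do not use, lay over the span of Tshb and of Fshb in sorted libraries. Over Tshb they summed to 122 scaled FPKM in the adult Tshbcre library (23 transcripts), 72.6 in the P7 Tshbcre library (5 transcripts) and 8.04 in the Ghcre library (3 transcripts), against 0 in both whole glands and the Lhbcre library. All 23 and all 5 of those in the Tshbcre libraries lay beyond the curated start of Tshb, within the span of its predicted transcripts. Over Fshb the sum was 2.75 in the Ghcre library, from 1 transcript. Over Tshb, the Lhbcre library had 10 unnamed transcripts and the whole P7 gland had 3, all shorter than 200 nt. Of all unnamed transcripts, 4.25% reached 200 nt in the Lhbcre library, 51.9% in the adult Tshbcre library and 65.8% in the whole adult gland. The length limit thus acts unequally between libraries, and these sums are not directly comparable.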

How the results depend on the processing

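No paired analysis was possible because each group is 1 library. Of 27 member differences, 26 kept their sign under all 5 alternatives run on them. The exception was Cga between the whole glands, from -0.78 to 0.26 on the log2 scale. The median log2 ratio, without a pseudocount, was also taken over genes at 1 scaled FPKM or more in both libraries of a comparison. Another scaling moved this median to between -0.55 and 1.41, the latter for Ghcre with an equal sum.

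With curated transcripts only, the use of the main Cga and Tshb transcripts was 100% in the 9 library values that were below it. With unnamed transcripts of the locus added, ratios to Cga in the Ghcre library were 0.393 for Tshb and 0.147 for Fshb, and in the adult whole gland 0.0257 for Tshb, 0.494 for Lhb and 0.140 for Fshb. With all unnamed transcripts over the span added, the ratio of Tshb was 0.183 in the adult Tshbcre library and 0.636 in the Ghcre library, that of Fshb in Ghcre was 0.147, and the adult whole ratios were 0.0257, 0.494 and 0.140.

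The count of members 4-fold higher in Lhbcre than in the adult whole gland was 0 with FPKM as deposited and with either addition, and 2 with an equal sum. At 2-fold it was 2 higher and 1 lower. The count lower in Ghcre was 2 with an equal sum and with the addition over the span, as Tshb no longer passed. The count higher in P7 Tshbcre than P7 whole was 2 with FPKM as deposited and 3 with unnamed transcripts of the locus added. That in adult Tshbcre over Lhbcre was 1 with an equal sum. At 2-fold, 2 members were lower at P7 in whole glands, and 1 was higher and 1 lower at P7 in the Tshbcre libraries.

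Over genes above 0 in both libraries, the pathway counts were 0 lower in Lhbcre against whole, 1 lower in P7 Tshbcre against P7 whole, 0 higher at P7 in whole glands, 1 lower at P7 in Tshbcre, and 3 higher in adult Tshbcre against Lhbcre. With unnamed transcripts of the locus added they were 0 lower in Lhbcre against whole, 4 higher and 0 lower in P7 Tshbcre against P7 whole, 0 higher at P7 in whole glands, and 1 higher at P7 in Tshbcre. The cause of these changes was not tested, except that fewer genes are compared in the first. Bounds were widest at low levels: those of Tshb in the Ghcre library span 23.5% to each side, and those of Cga in the P7 Tshbcre library 4.18%. The relative depth of these libraries was 2.73 and 1.15.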
